A study of Mus musculus with 12 samples.

Results

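The mature miRNAs of mouse embryonic epicardium (EE) at E10.5 were described from 3 small RNA libraries, out of 12 libraries in the whole series. These 3 are all the EE libraries made for small RNA, chosen by their labels of stage and assay and not by any measured value. Each library came from a separate pool of epicardial cells isolated by FACS, from at least 5 embryos per pool. The strain is given as Wt1Cre-EGFP, and the embryos carried a GFP reporter at the Wt1 locus, so the sort rested on activity of that gene, and the gate is not given in the sources used here. No treatment was applied, and there is no control group for this description. Libraries were made from 500 pg of total RNA by ligation of 3′ and 5′ adapters, reverse transcription and PCR, without a stated molecular identifier, so that copies of 1 molecule cannot be told from separate molecules. Epicardial genes were looked up in the 3 mRNA libraries of the same stage, without a comparison sample. The sort rested on the Wt1 locus, so Wt1 is no separate check of the label. Purity of the small RNA libraries was not tested. Wt1, the transcription factor that marks epicardium, was at 49.2, 68.8 and 104 CPM (counts scaled to equal library totals), and Tcf21, Tbx18, Upk1b, Upk3b and Aldh1a2, other epicardial genes, were each at 92.3 CPM or more in every library.

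MiRNAs are short RNAs cut from hairpin precursors by Drosha and Dicer. One arm of the hairpin, 5p or 3p, is usually kept in the Argonaute complex, where the seed of the miRNA pairs with target mRNAs and lowers their translation or stability. The epicardium is the mesothelial layer that spreads over the heart from the proepicardium and then gives rise, by epithelial to mesenchymal transition, to fibroblasts and mural cells of the coronary vessels. In mouse, loss of Dicer in the epicardium is known to disturb this process.

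Counts of the EE libraries were concentrated in few miRNAs, and 4 seed families held 36.4%, 31.1% and 34.2% of them in the 3 libraries. A seed family is the set of miRNAs with the same bases 2 to 8, printed here in capitals within mature sequences from RefSeq on GRCm38.p6, 5′ to 3′. The first family joins miR-351-5p, a rodent miRNA, to the miR-125 miRNAs.
miR-351-5p: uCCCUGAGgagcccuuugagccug
miR-125a-5p: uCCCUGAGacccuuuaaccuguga
miR-125b-5p: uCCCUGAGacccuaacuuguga
The second family holds miR-92a-3p of the miR-17-92 cluster with miR-92b-3p and miR-25-3p.
miR-92a-3p: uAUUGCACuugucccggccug
miR-92b-3p: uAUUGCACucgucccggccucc
miR-25-3p: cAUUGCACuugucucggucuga
The third family holds the miR-181 miRNAs, known for their part in lymphocyte development.
miR-181a-5p: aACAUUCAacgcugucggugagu
miR-181b-5p: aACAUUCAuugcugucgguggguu
miR-181d-5p: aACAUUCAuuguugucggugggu
The fourth holds miR-99a-5p, miR-99b-5p and miR-100-5p, which are known to repress Mtor.
miR-99b-5p: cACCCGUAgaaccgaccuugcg
miR-99a-5p: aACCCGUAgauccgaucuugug
miR-100-5p: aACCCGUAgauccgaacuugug

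The deposited table lists 1966 mature miRNA entries, and the EE libraries held 56842, 52661 and 35576 counts in the pools named EE1, EE2 and EE3 here. A miRNA counts as detected with at least 1 count. There were 254, 213 and 204 detected entries in EE1, EE2 and EE3, and drawing each library down to 35576 counts would leave 241, 203 and 204. EE1 thus still had the most entries at equal depth. Over all libraries 356 entries were detected, of which 119 were found in all 3, 77 in 2 and 160 in 1, while 1610 stood at 0. The 119 shared entries nevertheless carried 94.0%, 94.8% and 94.4% of the counts. A count of 0 allows a share of up to 0.00528% in EE1, 0.00570% in EE2 and 0.00843% in EE3, taking 3 counts as its upper limit, so a 0 does not show that a miRNA was absent. Limits and intervals given here cover counting error only.

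Only 8, 7 and 8 entries held 50% of the counts of EE1, EE2 and EE3, and miR-5099, a possible fragment of another RNA, was among them. The highest-ranked 10 entries of each library held 56.3%, 59.3% and 55.6%, and 58, 55 and 58 entries held 90%. These figures were close between libraries, although the entries behind them were not all the same. Of the 10 highest entries, 6 were common to all libraries (miR-5099, miR-92a-3p, miR-351-5p, miR-181a-5p, miR-320-3p and miR-541-5p), and of the 25 highest, 22 were.

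**Figure D1:**
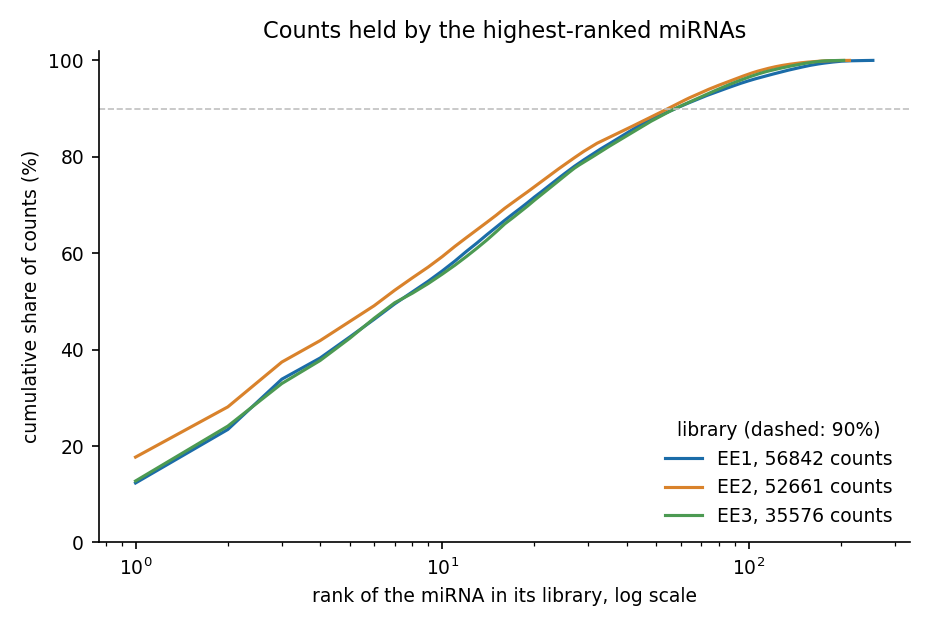
Cumulative share of miRNA counts (y axis, %) against the rank of the miRNA in its own library (x axis, log scale), 1 line for each EE library. The lines cross 90% (dashed) at 58, 55 and 58 miRNAs, and EE2 lies above the others at the first ranks.

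The entry with the highest mean share was miR-5099, at 11.1% of counts in EE1, 17.7% in EE2 and 11.4% in EE3, or 13.4% ± 3.73 (SD, n = 3). It is among the entries that may be fragments of other RNAs, described below. It was followed by miR-92a-3p with 10.4%, 9.30% and 12.7% (10.8% ± 1.76) and by miR-351-5p with 12.3%, 10.4% and 8.83% (10.53% ± 1.75). Each of the 3 stood first in 1 library, miR-351-5p in EE1, miR-5099 in EE2 and miR-92a-3p in EE3, so their order was not kept between libraries. Their means differed by less than the SD of miR-5099, and those of miR-92a-3p and miR-351-5p by less than either SD. Together they took 33.9%, 37.4% and 33.0% of the counts. Without EE2, miR-5099 fell below miR-92a-3p, with 11.2% against 11.6%. The exact (Clopper-Pearson) 95% interval of miR-5099 in EE2 was 17.4% to 18.03%, and those in EE1 and EE3 were 10.8% to 11.4% and 11.1% to 11.7%, so that the gap to EE2 was beyond counting error while EE1 and EE3 overlapped.

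A second step of the ranking held miR-181a-5p, miR-320-3p and miR-541-5p. Among these, miR-181a-5p was the steadiest, with 4.39%, 4.45% and 4.78%, or 4.54% ± 0.209 (SD, n = 3). For miR-320-3p, whose hairpin is made without Drosha, shares were 4.38%, 3.27% and 4.13%. For miR-541-5p, from the imprinted Dlk1-Dio3 locus, they were 3.20%, 3.21% and 4.62%, with EE3 above the other libraries. All other entries had a mean share under 3%. Down to the last of the 25 highest they ran from miR-99b-5p (3.65%, 2.22% and 1.82%) to miR-125a-5p (1.17%, 0.796% and 0.576%), and both were highest in EE1 and lowest in EE3. The opposite order was seen for miR-342-3p, which lies in an intron of Evl, with 0.990%, 1.65% and 3.21%.

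The 25 miRNAs of highest mean share held 76.2%, 77.6% and 75.4% of the counts of EE1, EE2 and EE3. Of the 25, 14 were 5p arms, 8 were 3p arms and 3 were entries with no arm in their name. The coefficient of variation (CV, the SD as a percent of the mean) ranged from 4.60% for miR-181a-5p to 77.0% for miR-6240. In 4 of them it was under 10%, namely miR-181a-5p, miR-877-5p (5.27%), a miRNA spliced out as a short intron of Abcf1, miR-543-3p (7.11%) and miR-483-5p (7.29%). MiR-6240 owed its CV to EE2, with 3.97% there against 1.31% and 1.04%, and its mean of 2.10% dropped to 1.17% without EE2.

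**Figure D2:**
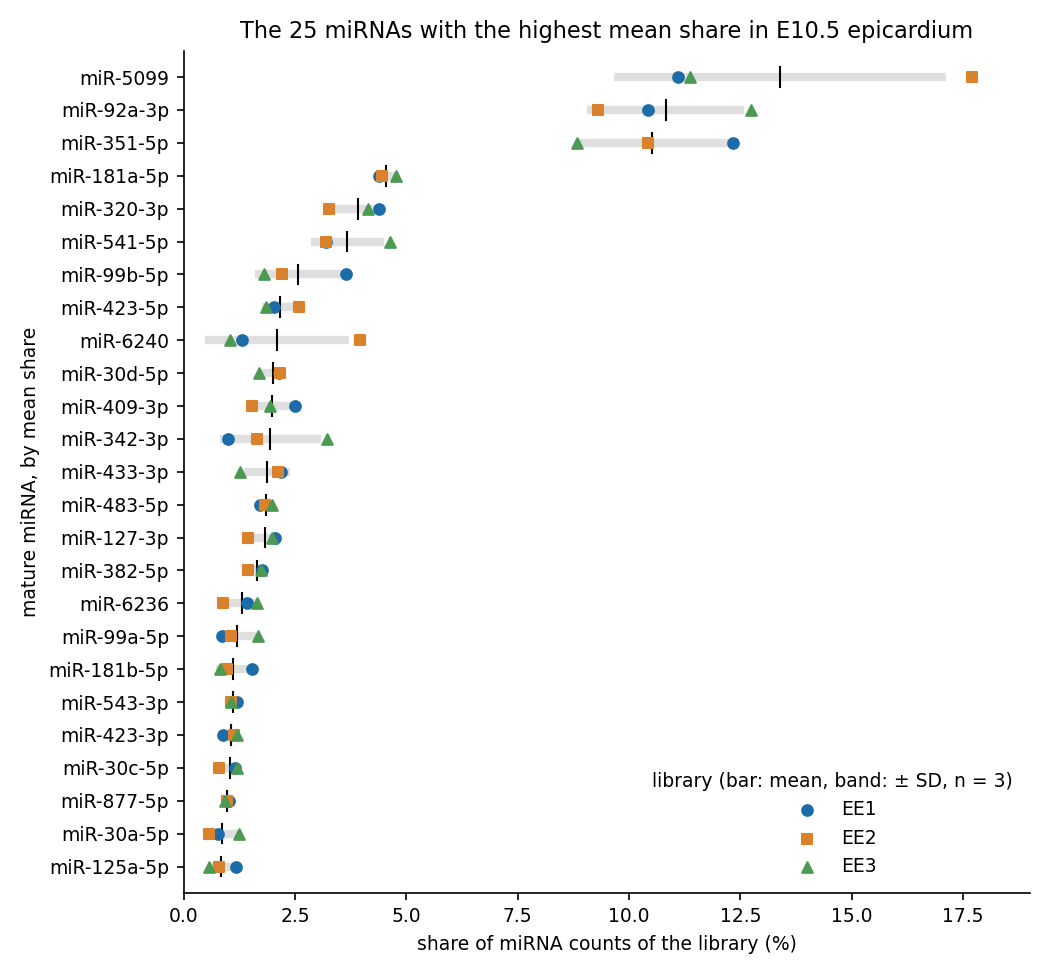
Share of miRNA counts (x axis, %) of the 25 miRNAs with the highest mean share (y axis), 1 point for each EE library, with a bar at the mean and a band of ± SD (n = 3). MiR-5099, miR-92a-3p and miR-351-5p stand at 8.83% or more in every library, and miR-5099 in EE2 reaches 17.7%. MiR-5099, miR-6240 and miR-6236 may be fragments of other RNAs.

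The miR-351-5p family was the largest by seed, with 14.3% of counts in EE1, 11.9% in EE2 and 10.4% in EE3 (12.2% ± 1.97, SD, n = 3). Within it miR-351-5p made up 86.2%, 87.5% and 84.9%, while miR-125a-5p and miR-125b-5p had mean shares of 0.847% and 0.831%. The order of these minor members was not kept, since miR-125a-5p was above miR-125b-5p in EE1 and EE2 and below it in EE3. MiR-351-5p lies at chrX:53053315-53053338 on the minus strand, with no other gene annotated over it. It belongs to the cluster of miR-322 and miR-503, known in muscle and mesoderm differentiation, and took 93.8%, 94.0% and 91.8% of that cluster's counts. Its neighbours were far lower: miR-503-5p had 212, 140 and 99 counts, miR-322-3p 138, 63 and 105, and miR-322-5p 34, 0 and 0.

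The miR-92a-3p family took 10.8%, 9.80% and 13.3% of counts (11.3% ± 1.82, SD, n = 3), and miR-92a-3p alone was at least 94.9% of it in each library. The same mature sequence lies at chr14:115044476-115044496, in an exon of Mir17hg, and at chrX:52741854-52741874, and counts from these places cannot be told apart. Other members of the miR-17-92 cluster, known to support proliferation in heart and lung, were low. MiR-20a-5p had 103, 171 and 140 counts, miR-17-5p 39, 4 and 7, and miR-19b-3p 2, 1 and 15. MiR-18a-5p had 69 counts in EE3 and 0 in EE1 and EE2, while miR-19a-3p was at 0 throughout. In the related miR-106b-25 cluster, miR-93-5p had 245, 282 and 139 counts and miR-25-3p 68, 50 and 67.

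The miR-181 family was close between libraries, with 6.38%, 5.78% and 6.15% (6.10% ± 0.305, SD, n = 3). MiR-181a-5p carried 68.8%, 77.0% and 77.7% of it, miR-181b-5p had mean share 1.11% and miR-181d-5p 0.451%. MiR-181a and miR-181b are encoded side by side on chromosomes 1 and 2, each in both places. In contrast, the proportions within the miR-99 family shifted, although the order of its members was kept. The family held 4.99%, 3.59% and 4.35%, and the part of miR-99b-5p in it was 73.1%, 61.8% and 41.8%. MiR-99a-5p and miR-100-5p had 494, 561 and 598 counts and 271, 161 and 303 counts. MiR-99b-5p lies in an intron of Spaca6 on chromosome 17 and miR-125a-5p in an exon of the same gene, close by. The 3 clusters that pair a miR-99, a let-7 and a miR-125 miRNA held 8.25%, 5.93% and 6.68% of the counts together.

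**Figure D3:**
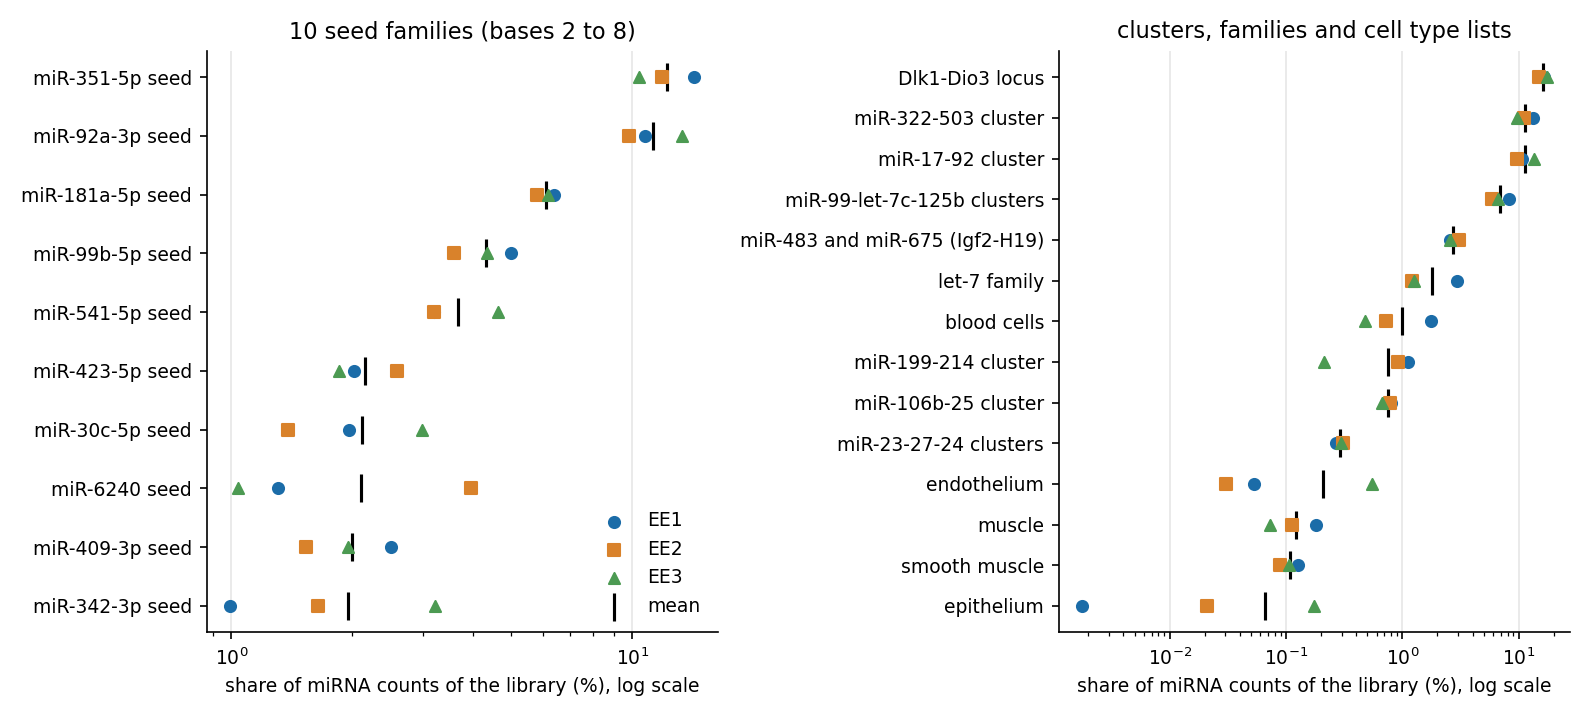
Share of miRNA counts of the library (x axes, %, log scale) for 10 seed families (left) and for clusters, families and cell type lists (right), 1 point for each EE library and a bar at the mean. The Dlk1-Dio3 locus, the cluster of miR-322 and miR-503 and the miR-17-92 cluster lie highest on the right, and the epithelial and endothelial lists spread widest of those drawn. The miR-17-92 cluster is given all counts of miR-92a-3p, which has more than 1 place in the genome. They are 94.6% or more of that cluster in each library.

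The next families by seed were miR-541-5p, miR-423-5p, miR-30c-5p, miR-6240, miR-409-3p and miR-342-3p, between 3.68% and 1.95% on average, and only the miR-30 family among them had more than 1 detected member. In that family miR-30c-5p had 657, 422 and 425 counts and miR-30a-5p 445, 302 and 443, whereas miR-30e-5p had 15, 5 and 197, so that EE3 stood apart. Families were built from the 1675 entries whose name matched a RefSeq mature sequence. The matched entries held 79.6%, 75.0% and 81.5% of the counts, and miR-5099, miR-320-3p and miR-30d-5p were in no family for lack of a match. Counted by name, the miR-30 miRNAs with miR-30d-5p included took 4.10%, 3.55% and 4.69%.

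The let-7 miRNAs, which accumulate as tissues differentiate and are held back by Lin28, were a minor group. Their seed family held 2.80% of counts in EE1, 1.15% in EE2 and 1.25% in EE3, with EE1 above both others. The most abundant, let-7c-5p, had 579, 166 and 238 counts. Let-7a-5p and let-7f-5p varied more, with 376, 129 and 18 counts and 264, 15 and 65 counts, and let-7g-5p had 130, 64 and 0. Of 11 let-7 entries with this seed 9 were detected and 6 were found in all libraries, against 356 and 119 of the 1966 entries in the table.

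By position, the largest group was the Dlk1-Dio3 locus, an imprinted region whose miRNAs are made from the maternal chromosome. Its miRNAs span chr12:109563710-109747949 on GRCm38.p6 and held 16.4%, 14.9% and 17.3% of the counts (16.2% ± 1.23, SD, n = 3). Of the 111 entries listed for the locus 54 were detected, 22 in all libraries and 21 in 1 only, and 57 were at 0. Together, 6 entries held 74.9% of the mean share of the locus, and their sequences are given because they carry this result.
miR-541-5p: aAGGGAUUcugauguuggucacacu
miR-409-3p: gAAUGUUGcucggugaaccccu
miR-433-3p: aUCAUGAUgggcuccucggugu
miR-127-3p: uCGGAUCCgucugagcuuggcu
miR-382-5p: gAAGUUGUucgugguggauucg
miR-543-3p: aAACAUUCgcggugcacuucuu
No seed was shared among the 6. MiR-541-5p, miR-409-3p and miR-382-5p lie in introns of the noncoding gene Mirg, and miR-127-3p and miR-433-3p lie opposite an exon of Rtl1, a paternally expressed gene that miR-127 is known to repress in mouse placenta.

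Counts of these miRNAs were present in every library. MiR-409-3p had 1418, 810 and 694 counts (2.49%, 1.54% and 1.95%), and miR-433-3p 1248, 1122 and 453 (2.20%, 2.13% and 1.27%). MiR-127-3p had 1167, 763 and 710, miR-382-5p 1001, 761 and 622, and miR-543-3p 681, 555 and 381. As a share, miR-543-3p was the closest between libraries, with 1.20%, 1.05% and 1.07%. Below them the locus was uneven. MiR-379-5p had 2, 0 and 154 counts, miR-494-3p 1, 1 and 127, miR-134-5p 78, 197 and 0, and miR-487b-3p 24, 201 and 19, so that each of these was mostly a count of 1 or 2 libraries.

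A second imprinted region gave miR-483, which lies in an intron of Igf2 on chromosome 7. MiR-483-5p was steady at 1.72%, 1.83% and 1.98%, and miR-483-3p was at 0.686%, 1.22% and 0.512%. MiR-675-5p, cut from the H19 transcript next to Igf2, had 80, 1 and 21 counts.

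Among entries named with an arm, 5p arms held 58.3% of the counts in EE1 (exact 95% interval 57.9% to 58.8%), 57.3% in EE2 (56.8% to 57.8%) and 57.1% in EE3 (56.5% to 57.6%), with a mean of 57.6% ± 0.659 (SD, n = 3). The table itself lists 818 5p and 829 3p entries, of which 161 and 153 were detected. Entries with no arm in their name held 14.8%, 24.6% and 15.8% of the counts, and miR-5099 and miR-6240 account for most of these. Arms were then compared within hairpins whose arms carry the same name, which leaves out those encoded more than once with a copy number in the name of 1 arm, such as miR-92a and miR-181a. Of 164 such hairpins with at least 10 counts over both arms, 77 had more 5p and 83 more 3p counts, and 4 had equal counts. Some of them repeat the same counts on opposite arms, namely miR-337 with miR-3544, miR-126b with miR-126a and miR-486a with miR-486b. The 4 equal ones (miR-345, miR-291b, miR-6988 and miR-3110) had identical counts on both arms in each library. These tallies were not corrected for such repeats. With copy numbers dropped, a choice made after the values were seen, 19 hairpins were added, and 90 of 183 had more 5p and 89 more 3p counts. Among those added, miR-92a had 3p counts alone, while miR-30c and miR-125b had 5p counts alone and miR-181a was 99.9%, 100% and 100% 5p. MiR-24 (3p) and miR-3074 (5p), also added, repeat the same counts. Strong bias to 1 arm was common among the 164, with over 90% of the counts on 1 arm in 124 hairpins and no count on the other arm in 45 (5p alone) and 46 (3p alone). Of the 83 hairpins with counts in all 3 libraries, 67 had the same arm higher in each.

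Both arms were present in every library for 16 hairpins, and the 5 with the highest counts were miR-351, miR-541, miR-423, miR-99b and miR-483. MiR-351 was 99.1%, 98.8% and 98.1% 5p, and miR-541 was 99.9%, 99.6% and 99.9% 5p. MiR-99b was less one-sided, with 94.4%, 87.2% and 95.4%. The most even of these 5 were miR-423, from an intron of Nsrp1, with 69.5%, 69.4% and 60.7% 5p, and miR-483, with 71.4%, 60.0% and 79.5%. Their arms are shown because both were abundant.
miR-423-5p: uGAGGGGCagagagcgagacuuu
miR-423-3p: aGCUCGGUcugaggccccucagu
miR-483-5p: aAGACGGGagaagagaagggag
miR-483-3p: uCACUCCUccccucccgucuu
MiR-433, miR-543 and miR-214 had 3p counts alone, and miR-30d, miR-99a, miR-125a, miR-30a and miR-100 had 5p counts alone. The higher arm was not the same in every library for some hairpins, among them miR-323, with 69.3%, 95.1% and 36.2% 5p, and miR-335, with 51.6%, 27.3% and 80.3%.

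**Figure D4:**
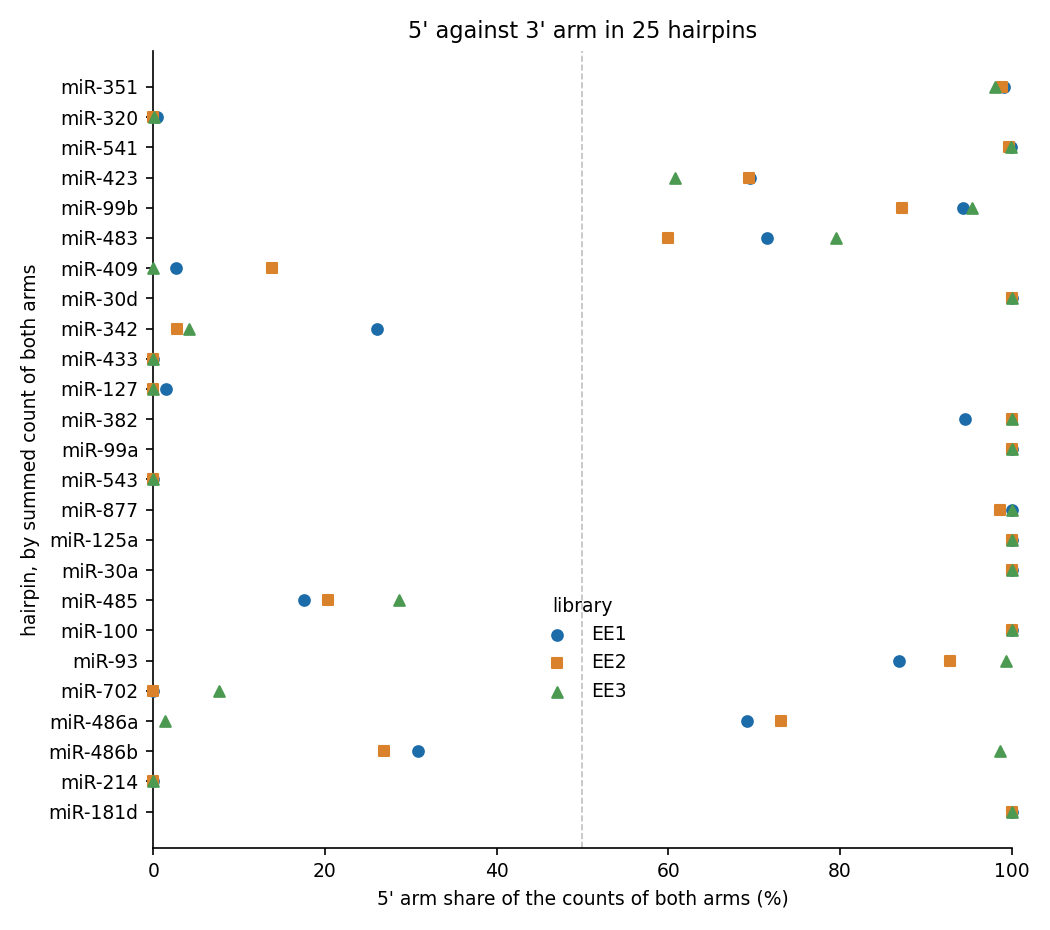
Share of the 5p arm in the counts of both arms (x axis, %) for the 25 hairpins with the highest summed count among those whose arms carry the same name (y axis), 1 point for each EE library, with a dashed line at 50%. Most hairpins lie at or near 0% or 100%, while miR-423, miR-483 and miR-485 lie between and miR-486a and miR-486b change sides in EE3. MiR-486a and miR-486b hold the same counts with the arms exchanged.

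Some entries had counts that cannot be assigned to 1 miRNA. There were 25 sets of entries with identical counts in the 3 libraries and at least 10 counts, and 8 of these sets had counts in at least 2 libraries. In 4 sets the members overlap on opposite strands of the genome, and among these were miR-24-3p with miR-3074-5p (41, 80 and 40 counts), miR-337-5p with miR-3544-3p (74, 69 and 125) and miR-126a-3p with miR-126b-5p (15, 8 and 97). Each such pair holds the same count under both names. MiR-486a-5p and miR-486b-3p had 345, 98 and 1 counts each, and miR-486a-3p and miR-486b-5p 154, 36 and 71 each. Coordinates of the miR-486 entries were not among those used, so whether they overlap was not checked. Keeping each set once removed 1.82%, 0.925% and 1.46% of the counts, in part of sets that may agree by chance at low counts. Mature sequences at more than 1 place in the genome, miR-92a-3p among them, held 21.8%, 18.4% and 23.8% of the counts.

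Entries that may be fragments of other RNAs were listed apart. Of 17 such entries 12 were detected, against 356 of 1966 entries over the table. Together the 12 held 14.1% of the counts in EE1, 23.5% in EE2 and 15.02% in EE3 (17.5% ± 5.16, SD, n = 3), of which miR-5099 was 78.7%, 75.4% and 75.8%. MiR-6240 and miR-6236 were the next, and miR-6236 had 811, 466 and 584 counts, that is 1.43% (exact 95% interval 1.33% to 1.53%), 0.885% (0.807% to 0.969%) and 1.64% (1.51% to 1.78%). Unlike miR-5099 and miR-6240, it was lowest in EE2. The mature sequences of miR-6236 and miR-6240 and the hairpin of miR-5099 (74 bases, no part marked) are shown for their composition and their place.
miR-6236: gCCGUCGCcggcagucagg
miR-6240: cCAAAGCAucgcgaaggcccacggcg
Mir5099 hairpin: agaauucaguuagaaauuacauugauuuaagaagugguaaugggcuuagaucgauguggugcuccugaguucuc
MiR-6236 has 19 bases with 78.9% G or C and lies at chr9:110281353-110281371, miR-6240 has 26 bases with 69.2% and lies at chr5:114851973-114851998, and the Mir5099 hairpin lies at chr12:36816205-36816278. No other gene is annotated at any of these places.

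A search of 4419 annotated rRNA, tRNA, snoRNA, scaRNA, snRNA and other small RNA sequences gave no shared run of 15 bases or more for miR-6236, miR-6240 or the Mir5099 hairpin. The rRNA sequences searched did not include the complete precursor, so a source of these entries in rRNA was not tested. MiR-6236 was followed because its sequence is thought to match rRNA. Over the table, 49 of 1675 entries (2.93%) shared such a run, and 22 of the 310 detected entries with a sequence did. Whole matches were found for 18 detected entries, which held 0.899%, 0.904% and 0.739% of the counts. For some, such as the arms of miR-677 and miR-3068, the match was to the miRNA's own gene, annotated as a snoRNA. The highest of the 18 was miR-3084-3p, contained in Snora19, with 254, 100 and 140 counts. MiR-3535 (57, 109 and 33 counts) lies in a snoRNA gene within Ncl, the nucleolin gene. MiR-6538, contained in the 28S rRNA gene Rn28s1, had 36, 20 and 0 counts, and miR-5100, with 19 of its 21 bases in a tRNA, had 0, 78 and 0. MiR-3963, with a run of 15 bases in a tRNA, had 116, 287 and 209 counts, the fourth place in this list.

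The miRNAs that the study followed by qPCR for their effect on heart muscle formation differed widely here, from ranks 25, 26 and 31 by mean share down to 0 counts. The study measured them in proepicardial explants and in epicardial and endocardial cell lines, not in sorted epicardium. It cites their effect from chicken, and found no such enhancement by miR-195 or miR-223 in mouse explants. Of 16 arms of these miRNAs 5 were detected, against 356 of 1966 entries over the table. The 5 held 2.49%, 1.79% and 2.48% of the counts in sum. MiR-125a-5p had 665, 419 and 205 counts, miR-125b-5p 457, 364 and 355, and miR-100-5p 271, 161 and 303. MiR-23b-3p had 12, 0 and 18 counts and miR-27b-3p 13, 0 and 0. MiR-223, miR-195b, miR-195a and miR-146b were at 0 on every listed arm in all libraries. By counting error alone, this allows a share of up to 0.00843% in the shallowest. The true limit may be higher, since 76 of 183 entries with 30 or more counts in some library were at 0 in another.

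Marker miRNAs of other cells that a heart sample could hold were low, and several were seen mainly in 1 library. In bulk samples fewer cells of a type and less RNA per cell cannot be told apart. Of 17 blood cell entries 6 were detected, against 356 of 1966 entries over the table. They held 1.76%, 0.727% and 0.472% of the counts, mostly from the miR-486 arms named above, which are abundant in red blood cells. With each repeated miR-486 count kept once the list held 0.881%, 0.473% and 0.270%, a mean of 0.541% in place of 0.986%. Outside miR-486 the list was highest in EE2, with 0, 22 and 0 counts of the erythroid miR-451a and 2, 93 and 24 of miR-155-5p, and miR-144, miR-142a, miR-150 and miR-223 were at 0. The endothelial miR-126a-3p had 15, 8 and 97 counts, and the mean share of the endothelial list, which counts its partner miR-126b-5p as well, was 0.209% with EE3 and 0.0416% without it. MiR-486 and let-7 miRNAs were both highest in EE1, and endothelial miR-126a-3p and epithelial miR-200c-3p (0, 11 and 62 counts) in EE3. The part of other cells in the differences between libraries was not tested.

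Muscle miRNAs were few, with 36, 0 and 13 counts of miR-1a-3p, 24, 59 and 13 of miR-133b-3p and 0 of miR-208a, miR-208b and miR-499. For smooth muscle, miR-143-3p had 68, 10 and 0 counts and miR-145a-5p 0, 29 and 38, so the miRNAs of this cluster were not seen together at the same level. Liver miR-122-5p had 9, 0 and 0 counts, miR-124 and miR-9 of neurons were at 0, and of 28 entries of pluripotent cells only both arms of miR-291b were detected, with 16 counts each in EE3. MiR-199a-3p and miR-214-3p, known from embryonic mesenchyme, had 232, 68 and 39 counts and 312, 356 and 17 counts, and were lowest in EE3. From the Hox clusters, miR-10a-5p had 32, 32 and 29 counts.

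The spread between libraries was larger than counting alone would give. For the 22 miRNAs with a mean share of 1% or more, the median CV was 19.4% and the CV from counting 3.27%. It was 55.9% against 10.3% for the 74 miRNAs between 0.1% and 1%, all above the counting value. Among 260 entries under 0.1%, 160 were seen in 1 library. A count in 1 library was often not matched elsewhere: of 183 entries with 30 or more counts in some library, 76 were at 0 in at least 1 other and 32 were at 0 in both others, although an equal share would give 18.8 counts or more. Examples are miR-221-3p with 90 counts in EE1, miR-674-5p with 88 in EE2, and miR-219a-1-3p with 105 in EE3. This limit of 30 was chosen after the values were seen. Copies of 1 molecule made by PCR each add a count here, and their part in this was not tested. Ranks of the 119 shared entries correlated with Spearman's rho of 0.83 between EE1 and EE2, 0.72 between EE1 and EE3 and 0.71 between EE2 and EE3, as a description over entries that are not independent and that share sequence and annotation.

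**Figure D5:**
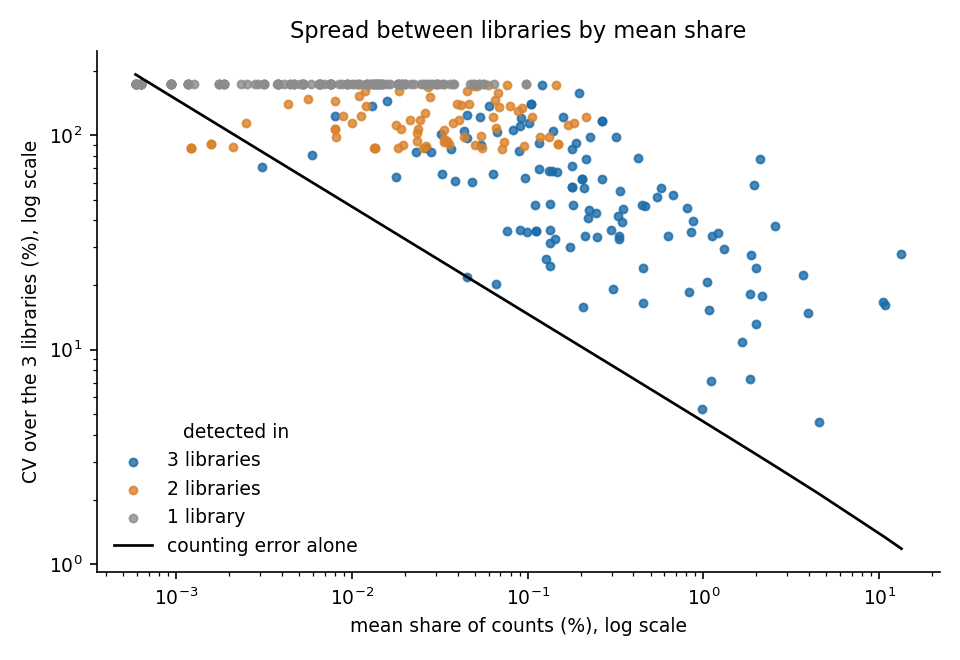
CV of the share over the 3 EE libraries (y axis, %, log scale) against mean share (x axis, %, log scale), 1 point for each of the 356 detected entries, coloured by the number of libraries with a count. The line is the CV from counting error alone, and nearly all points lie above it, as do all 22 with a mean share of 1% or more.

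Sequence features of the counts were alike in the libraries for base content, length and a first U, and less so for a first C. Of the counts in EE1, EE2 and EE3, 10.1%, 12.9% and 7.12% began with C, against 20.7% of entries. Weighted by counts, G and C made up 55.4%, 56.0% and 54.2% of bases, against 52.2% over the entries of the table, and U was the first base in 52.3%, 51.1% and 55.4% of counts, against 41.0% of entries. The mean length was 22.5, 22.6 and 22.4 bases. These values cover the entries with a matched sequence, so not miR-5099, and they rest in large part on miR-92a-3p and miR-351-5p, which both begin with U.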

How the data were processed

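Small RNA was sequenced from 3 EE pools (EE1 to EE3). The columns are named by an abbreviation read as epicardium-derived cells, and their numbers were taken as those of the EE samples. The authors deposited raw counts per mature miRNA, whole numbers and not normalized. The paper names HISAT2 on mm10 and featureCounts with miRBase annotation, whereas the submitters' processing notes name STAR, with featureCounts and read trimming by Trim Galore (0.4.3.1). Strand and multiple-mapping settings are not given in the sources used here. Each count was divided by its library total, with no correction for ligation or PCR. Means ± SD are over 3 libraries, without test, because a single group was described. A chi-square test of homogeneity on each pair of libraries asked only whether the same library had been entered again. The libraries differed by more than counting noise and were kept as 3 samples. Nothing says that pools shared no litter, so the spread may be partly technical. Intervals are exact binomial at 95%.

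Coordinates and sequences come from RefSeq GRCm38.p6, overlapping genes from GENCODE vM21. Arms of a pair were compared with at least 10 counts. Named were the 25 miRNAs and 10 seed families of highest mean share, members of each list with at least 10 counts, the qPCR miRNAs, the candidate fragments and the 5 highest hairpins with both arms, of which the text gives part. Some members with fewer counts, the uneven hairpins, the examples seen in 1 library, and the checks of shared runs and sequence features were chosen after their values were seen. Members and lists were chosen with earlier results of these data known. Python 3.11.15, scipy 1.17.1, edgeR 4.0.16 and DESeq2 1.42.0 (R 4.3.3) were used, the last 2 for scaling factors only. Formulas were tested on simulated data. Alternatives were TMM and DESeq2 scaling, pooling, filters on low counts, leaving out candidate fragments or repeated counts, and leaving out each library.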

Additional observations from a re-analysis of the deposited data

How the results depend on the processing

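Of 599 values for single miRNAs, families and lists recomputed under an alternative, 558 stayed within the spread between libraries (for counts of entries, within 1.5 times) and 41 did not. Of the 41, 33 came from leaving out the candidate fragments, which by construction raises the share of every other miRNA. Leaving out 1 of 3 libraries cannot move a mean share by more than its SD. All 61 values for each library left out thus stayed, also where a share changed much, and the 558 do not measure stability. Without those fragments miR-92a-3p came first with 13.1% and the Dlk1-Dio3 locus held 19.6%. Restricted to entries detected in all 3 libraries, the share of the 10 most abundant rose from 55.7% to 59.0%. TMM and DESeq2 scaling moved no value beyond the spread, and by construction could not change the share of 5p arms. Leaving out each library in turn gave 11.6% to 14.5% for the most abundant miRNA, 55.2% to 57.1% for the 10 most abundant, 56.5 to 58 miRNAs for 90% of the counts, 209 to 234 detected, 57.2% to 57.8% for 5p arms, 65 to 74 hairpins with more 5p counts, 1.16% to 1.53% for miR-6236 and 14.6% to 19.2% for the candidate fragments. With copy numbers dropped from arm names, an alternative chosen after seeing the data, 90 hairpins had more 5p counts in place of 77. The blood cell list fell from 0.986% to 0.600% without EE1, and the miR-6240 share and the endothelial list changed as given above. The epithelial list fell from 0.0656% to 0.0113% without EE3. Of 260 entries under 0.1%, 160 were seen in 1 library. For the 32 with 30 or more counts in 1 library and 0 in both others, an equal share would give 18.8 counts or more. Copies of 1 molecule cannot be told from separate molecules, so the number of molecules behind these counts is not known, and its part was not tested. No paired analysis was possible because a single group was described. Apart from the check for a library entered again, no test was run.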
